A study of Mus musculus with 20 samples.

Results

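Recently active olfactory sensory neurons were compared with the other cells of the same tissue in mice that smelled a smoke odor. The comparison used the 10 arrays labelled odor, of 20 in the series, and took the GFP+ and the GFP- array of each replicate number as a pair from 1 pool, which gave 5 pools. On each array 22206 probe sets for genes were measured, and all of them were tested. The mice carried an S100a5-tauGFP reporter, in which a green fluorescent protein marks cells that transcribe S100a5. The labels do not say whether the animals had 1 or 2 reporter alleles, nor their strain background. The series used 30 mice of both sexes, aged 7 to 12 weeks, each kept alone for 40 h in a chamber with clean air at 3.1 L/min. From 26 h on, the odor mice received 10 s of an odorant every 20 min, and the vehicle mice received filtered air on the same schedule. The odorant is an artificial cigarette smoke odor in the sample labels and bourgeonal in the design text, and the sample labels were followed. For each pool, cells from the olfactory mucosa of 3 mice were combined and separated by their fluorescence into GFP+ and GFP- cells, so every value is an average over the cells of 3 animals. Vehicle pools, also 5, entered the fit for their spread and appear below where the size of a difference under clean air is set beside that under odor.

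Each mature olfactory sensory neuron transcribes 1 odorant receptor gene out of a very large family, and a smaller number use a trace amine-associated receptor instead. The receptor acts through the G protein Gnal, the cyclase Adcy3 and the cyclic nucleotide-gated channel Cnga2 with its partner subunits, and a calcium-activated chloride channel, Ano2, amplifies the current. S100a5 encodes a calcium-binding protein whose transcription follows the activity of the neuron, which is why its reporter is used to collect active neurons. A neuron can be active without an added odor, through spontaneous receptor activity or air flow. The GFP- fraction is no pure population of silent neurons: it can hold every other cell of the mucosa, including supporting cells, glands, basal stem cells, microvillar cells and white blood cells. In such bulk samples fewer cells of a type and less RNA per cell cannot be told apart.

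Windows around the annotated starts of a few genes that stand at the ends of the comparison are shown here, as RefSeq gives them in build GRCm38.p6. Each window runs from 250 bases before to 50 bases after the annotated start of the gene, on its own strand, 5′ to 3′. Capitals mark 2 searched motifs on either strand, TGACG, the core of the sites bound by the activity-regulated factor CREB, and TAATTA, a core bound by homeodomain factors such as Lhx2. S100a5, the reporter's gene, lies at chr3:90608272-90608571 on the plus strand. Fos, an immediate early gene with the opposite behaviour, lies at chr12:85473640-85473939 on the plus strand. Olfr705, the receptor with the largest positive fitted change, lies at chr7:106874194-106874493 on the minus strand, and Olfr1297, the receptor with the second largest negative fitted change, at chr2:111622023-111622322 on the minus strand.
S100a5: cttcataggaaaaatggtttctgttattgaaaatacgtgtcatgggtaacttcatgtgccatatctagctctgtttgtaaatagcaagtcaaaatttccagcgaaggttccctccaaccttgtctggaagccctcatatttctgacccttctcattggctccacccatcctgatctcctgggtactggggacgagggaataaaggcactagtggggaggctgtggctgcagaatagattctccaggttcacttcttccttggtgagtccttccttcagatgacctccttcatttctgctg
Fos: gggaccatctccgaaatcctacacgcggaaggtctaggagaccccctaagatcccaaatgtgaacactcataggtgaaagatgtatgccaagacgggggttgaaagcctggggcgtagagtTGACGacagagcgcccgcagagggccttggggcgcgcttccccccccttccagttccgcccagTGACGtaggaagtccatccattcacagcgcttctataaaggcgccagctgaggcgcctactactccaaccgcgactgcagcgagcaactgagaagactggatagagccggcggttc
Olfr705: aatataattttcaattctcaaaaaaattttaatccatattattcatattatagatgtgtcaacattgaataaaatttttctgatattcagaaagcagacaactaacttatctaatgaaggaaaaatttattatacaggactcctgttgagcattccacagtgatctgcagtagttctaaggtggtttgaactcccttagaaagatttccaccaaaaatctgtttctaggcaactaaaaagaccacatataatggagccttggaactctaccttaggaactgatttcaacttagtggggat
Olfr1297: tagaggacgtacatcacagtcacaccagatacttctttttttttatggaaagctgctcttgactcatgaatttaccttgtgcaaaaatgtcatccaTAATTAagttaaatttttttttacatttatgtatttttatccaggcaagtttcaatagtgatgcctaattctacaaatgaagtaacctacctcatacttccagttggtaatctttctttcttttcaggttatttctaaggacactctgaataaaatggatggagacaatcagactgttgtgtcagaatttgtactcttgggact
The windows of S100a5 and Olfr705 held neither motif, that of Fos held TGACG at 2 places and that of Olfr1297 held TAATTA at 1. TGACG was found in 20.8% of all 32851 such windows, in 5.05% of 277 odorant receptors that were higher in GFP+ cells and in 7.33% of 150 that were lower. TAATTA was found in 5.29% of all windows, in 18.8% of the higher receptors, in 21.3% of the lower receptors and in 17.6% of 494 receptors that passed in neither direction. All 3 shares among receptors lay above that of all windows, and no test between them was made. In the Olfr1297 window the bases after the annotated start begin with ATG. That start can therefore be a start codon, and the window need not hold the promoter. How many other receptor windows are of this kind was not counted, so the shares among receptors need not describe promoters. A match is only a description of the letters, and some receptors have no entry in the table used.

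Before any result, 2 features of the arrays bear on the values. The pair of odor arrays of replicate 5 had median gene signals of 7.07 to 7.46 on the log2 scale, where the other 8 odor arrays had 6.08 to 6.33, and their brightest probe sets were dimmer, at 18.57 to 18.65 against 19.44 to 19.85. The GFP- array of replicate 2 correlated least with its group among those 8, at a mean r of 0.951. Background control probe sets had medians of 5.14 to 6.32 on the 10 arrays, and a signal in that range shows neither presence nor absence of a transcript. The number of arrays limits the precision.

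The fractions differed in the reporter's own gene, while the signal of the marker of mature neurons was nearly level. S100a5 had log2 signals of 16.92, 16.66, 16.71, 17.40 and 16.88 in GFP+ cells of pools 1 to 5 and of 14.43, 15.41, 14.27, 14.15 and 15.55 in GFP- cells. All GFP+ values lay above all GFP- values, by 2.15 on the log2 scale on average (SE 0.36, adjusted p = 0.00131 by limma, higher in 5 of 5 pools), or 4.44-fold. The GFP- fraction still had an S100a5 signal far above background. Omp, which marks sensory neurons once they are mature, was at 19.55, 19.50, 19.60, 19.65 and 18.29 in GFP+ and at 19.38, 19.24, 19.57, 19.57 and 18.24 in GFP- cells. It changed by 0.12 (SE 0.23, adjusted p = 0.901 by limma), which was within the spread between pools, and Omp lay as little as 0.14 below the brightest probe set of an array, where signals can saturate. Lcn2, a siderophore-binding protein of neutrophil granules, had 6.64, 5.55, 7.88, 8.01 and 6.99 in GFP+ cells against 18.45, 17.87, 18.27, 18.48 and 16.98 in GFP- cells. The fractions did not overlap, and the change of -11.00 (SE 0.44, adjusted p = 3.73e-09 by limma) is a 2046-fold lower signal in GFP+ cells. Omp was thus bright in both fractions, and Lcn2 was bright in the GFP- fraction.

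**Figure D1:**
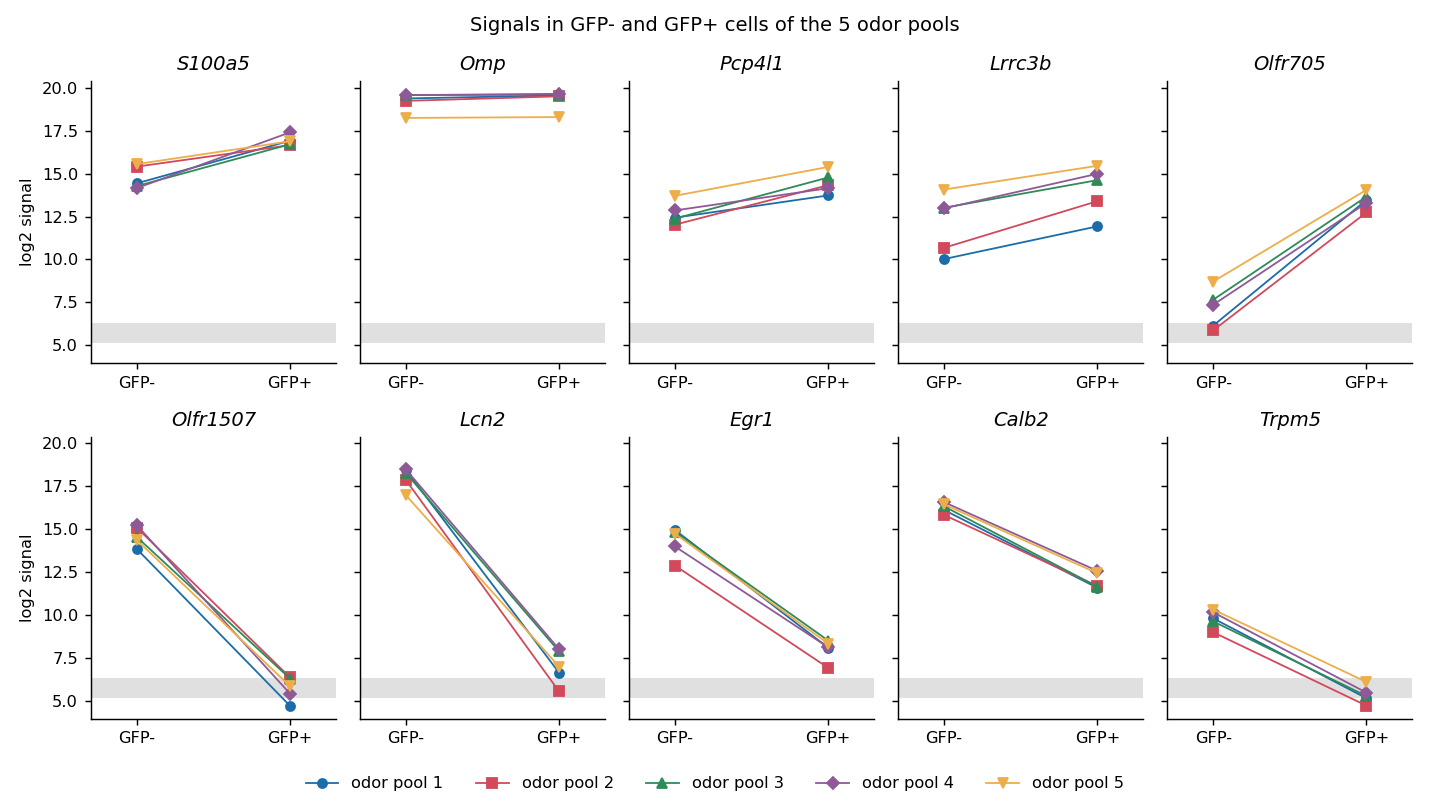
Log2 signals of 10 genes in GFP- and GFP+ cells, where each line joins the fractions of 1 of the 5 odor pools and the grey band spans the background control medians of the 10 odor arrays, 5.14 to 6.32. S100a5, Pcp4l1, Lrrc3b and Olfr705 go up in every pool, Omp is nearly level, and Olfr1507, Lcn2, Egr1, Calb2 and Trpm5 go down in every pool.

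Over all probe sets, 460 (2.07%) were higher in GFP+ cells and 1292 (5.82%) lower at an adjusted p under 0.05 by limma, which tested the mean of the 5 pool differences against 0. Of these, 450 higher and 1270 lower probe sets had the same sign in 5 of 5 pools. The fractions did not overlap at all in 1125 probe sets (5.07%). The split between directions depended on the scaling: with each array centred on its median gene, 807 were higher and 1055 lower, because centring moved the median change of all probe sets from 0.08 to 0.29, and higher probe sets made up 43.3% of the calls instead of 26.3%. When GFP+ and GFP- arrays were treated as independent samples, without the pool as a pair, 206 were higher and 844 lower, with 182 receptors among the higher ones. Of the 1752 calls, 1528 also passed in vehicle pools, and 4 had the opposite sign there. The difference between odor and vehicle pools passed for 0 probe sets by limma, with 269 (1.21%) at an unadjusted p under 0.05.

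Receptors and all other genes split in opposite ways. Receptors, the odorant receptor (Olfr) and trace amine-associated receptor (Taar) genes of the main epithelium, gave 335 of the higher probe sets, or 72.8%, but only 14.4% of the lower ones. Of 1094 receptors measured, 335 (30.6%) were higher in GFP+ cells, against a background of 2.07% over all probe sets, and 186 (17.0%) were lower, against 5.82%. Of the 21112 other probe sets, 125 (0.592%) were higher and 1106 (5.24%) lower. Changes of more than 4-fold were found in 325 receptors (29.7%) and in 478 other probe sets (2.26%), where 471 of the latter were lower and 7 higher. The SD of the log2 changes was 2.07 over receptors and 0.70 over the others. The count of 125 other probe sets was less stable than that of receptors. It fell to between 46 and 80 when 1 odor pool was left out, to 63 without both pools numbered 5 and to 24 without the pool as a pair, and it was 257 without vehicle pool 1. It rose to 421 with centring, to 621 with the 5 odor pools alone and to 947 with weights per pool. The count of higher receptors lay between 276 and 371 when any 1 pool was left out.

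**Figure D2:**
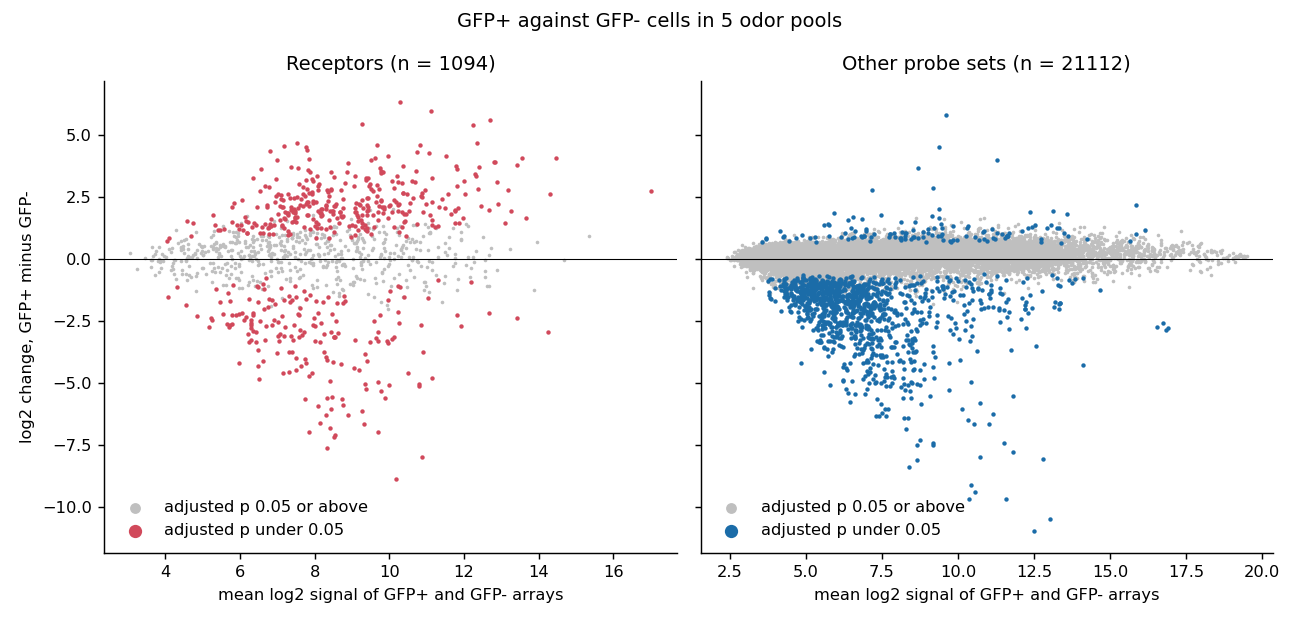
Log2 change between GFP+ and GFP- cells over 5 odor pools (vertical axis) against the mean log2 signal of both fractions (horizontal axis), for the 1094 receptors on the left and the 21112 other probe sets on the right. Coloured points passed an adjusted p under 0.05 by limma: receptors spread to both sides, with 335 higher and 186 lower, while 1106 of the other called probe sets are lower and 125 higher.

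At the top of the comparison were single odorant receptors. Olfr705 had log2 signals of 13.47, 12.74, 13.66, 13.29 and 14.06 in GFP+ cells and of 6.15, 5.87, 7.66, 7.36 and 8.72 in GFP- cells. These do not overlap, and the change of 6.29 (SE 0.40, adjusted p = 2.71e-07 by limma) corresponds to 78.4-fold. Olfr536 had 13.08, 13.95, 14.15, 14.09 and 15.19 against 7.71, 7.04, 7.56, 8.33 and 9.99, a change of 5.97 (SE 0.34). Olfr309 was at 15.31 to 15.75 in GFP+ cells and 8.79 to 10.76 in GFP- cells, so that the active fraction varied less between pools than the other one (5.60, SE 0.29). Olfr110 (5.42), Olfr533 (5.40), Olfr481 (4.68), Olfr222 (4.66), Olfr281 (4.59), Olfr101 (4.58) and Olfr372 (4.55) followed, each without overlap between the fractions and higher in 5 of 5 pools. Olfr481 and Olfr372 were at or below the background control median on all 5 GFP- arrays, so their fitted changes are not bounds. With the GFP- values raised to that median they were at least 19.2-fold and 14.4-fold higher. In vehicle pools the same 10 receptors had changes between 4.27 for Olfr705 and 5.54 for Olfr110. For Olfr705 the odor pools exceeded the vehicle pools by 2.02, with an adjusted p of 0.9999 by limma. The ligands of these receptors are not part of the data.

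Other receptors were near background in the active fraction and bright in the GFP- fraction. Olfr1507, a much-studied receptor of the ventral epithelium, had 4.71, 6.37, 6.30, 5.42 and 5.86 in GFP+ cells and 13.85, 15.09, 14.55, 15.23 and 14.37 in GFP- cells. The GFP+ values lay at the level of the background controls, and the signal changed by -8.89 (SE 0.28, adjusted p = 7.2e-10 by limma), at least 432-fold lower after raising them to the background median of their array. Olfr1297 had 6.56, 6.53, 7.43, 6.51 and 7.35 in GFP+ cells against 14.85, 14.62, 14.89, 14.41 and 15.53 in GFP- cells, a change of -7.99 (SE 0.27). Its GFP+ signal was above the background median of every array. Olfr677, a class I receptor, was at 3.82 to 5.18 against 10.71 to 13.54 (-7.65), at least 100.3-fold. Olfr794 (-7.20), Olfr99 (-7.12), Olfr1406 (-6.99), Olfr393 (-6.98), Olfr1213 (-6.84), Olfr1447 (-6.66) and Olfr728 (-6.61) also had no overlap between fractions. In all, 93 of the 186 lower receptors had a GFP+ mean no higher than the brightest of the background medians, and 77 of the 335 higher receptors had such a GFP- mean, so for these the size and the order of the fitted changes are not measured. Both means lay there in 147 of the 1094 receptors.

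Across the 1094 receptors, the difference of each pool correlated with the mean of the other 4 pools at r = 0.905 to 0.927, while across the other probe sets r was 0.593 for pool 2 and 0.704 to 0.808 for the others. These are correlations across genes, which are not independent replicates, and receptors have a wider spread. In each pool at least 332 of the 335 higher and 184 of the 186 lower receptors had the sign of the mean. Of the receptors, 155 higher and 126 lower ones had no overlap between fractions. Called or not, 288 of the 1094 receptors had none, beside 5.07% of all probe sets.

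Receptors fall into class I, an older group related to fish receptors, and class II, the larger group specific to land vertebrates. Of 120 class I receptors 27 (22.5%) were higher and 12 (10.0%) lower, with a median log2 change of 0.36. Of 941 class II receptors 296 (31.5%) were higher and 169 (18.0%) lower, with a median of 0.44. Both classes were therefore found in both directions, and no test between them was made. Among the 28 families of the older receptor nomenclature with at least 10 measured members, some lay almost wholly on 1 side. In family 106, 10 of 13 members were higher and 1 lower, with a median of 2.61. Family 253 had 7 of 10 higher, family 283 had 7 of 12, family 224 had 6 of 10 and family 182 had 6 of 10, and in the first 3 of these no member was lower. On the other side, family 225 had 6 of 11 members lower and 1 higher, with a median of -3.12, and family 135 had 8 of 17 lower and 1 higher, with a median of -1.20. The largest family, 256, had 14 of 48 higher (29.2%) and 5 lower (10.4%), beside 30.6% and 17.0% of all receptors, and family 204 had 13 of 31 higher and 2 lower.

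**Figure D3:**
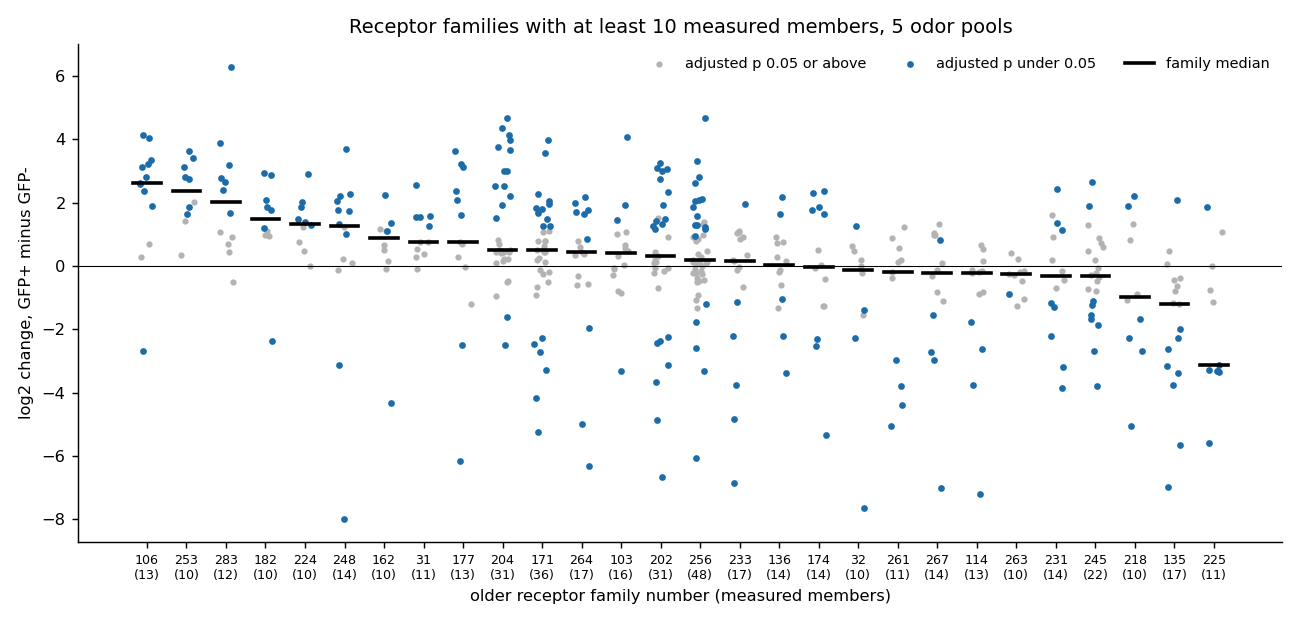
Log2 change between GFP+ and GFP- cells over 5 odor pools for every odorant receptor of the families with at least 10 measured members, ordered by the family median (black bar). Blue points passed an adjusted p under 0.05 by limma; the medians run from 2.61 in family 106 to -3.12 in family 225.

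Receptors that lie next to each other in the genome had the same direction more often than the share over all receptors. Of the neighbours of a higher receptor 41.9% were also higher, where 30.6% of all receptors were, and 12.3% were lower. Of the neighbours of a lower receptor 22.9% were also lower, where 17.0% of all receptors were. Nearly as many of them, 22.6%, were higher. Among 1044 neighbouring pairs, 134 were both higher, 40 both lower and 79 opposite. The longest run of higher neighbours was Olfr738 to Olfr745, 8 receptors that all belong to family 106. Their changes ranged from 1.90 for Olfr739 to 4.15 for Olfr745. Within it Olfr741 reached 16.39, 17.20, 16.44, 16 and 16.33 in GFP+ cells against 11.99, 12.02, 12.20, 12.77 and 13.15 in GFP- cells. That change of 4.05 (SE 0.29) started from a GFP- level well above background. The next run, of 6, was Olfr531, Olfr532, Olfr533, Olfr535, Olfr536 and Olfr538, with changes from 1.86 to 5.97, and it included 2 of the 10 receptors with the largest changes. Another run held Olfr1281, Olfr1282, Olfr1283, Olfr1284 and Olfr1286, from 1.02 to 3.70. Olfr1282 was the member closest to the threshold, and its call ended without odor pool 1, 3, 4 or 5, with changes of 0.87 to 1.03. Neighbours often are close in sequence, and the probe sets of similar receptors can share signal.

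Runs of lower neighbours were shorter. Olfr389, Olfr390, Olfr391, Olfr392 and Olfr393 all belong to family 135 and had changes of -3.15, -5.65, -2.63, -3.77 and -6.98. Olfr390 was at 5.02 to 6.81 in GFP+ cells and at 10.69 to 12.63 in GFP- cells, without overlap (-5.65, SE 0.23). Olfr1489, Olfr1490, Olfr1491, Olfr1494 and Olfr1495 had changes from -4.95 to -2.19. Olfr1039, Olfr1040, Olfr1042 and Olfr1043, all of family 185, had changes from -4.63 to -1.55. In that run Olfr1040 lost its call without odor pool 1, 2 or 5 (-1.56 to -1.33), and all its GFP- signals lay at or below background, so its direction is not resolved.

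**Figure D4:**
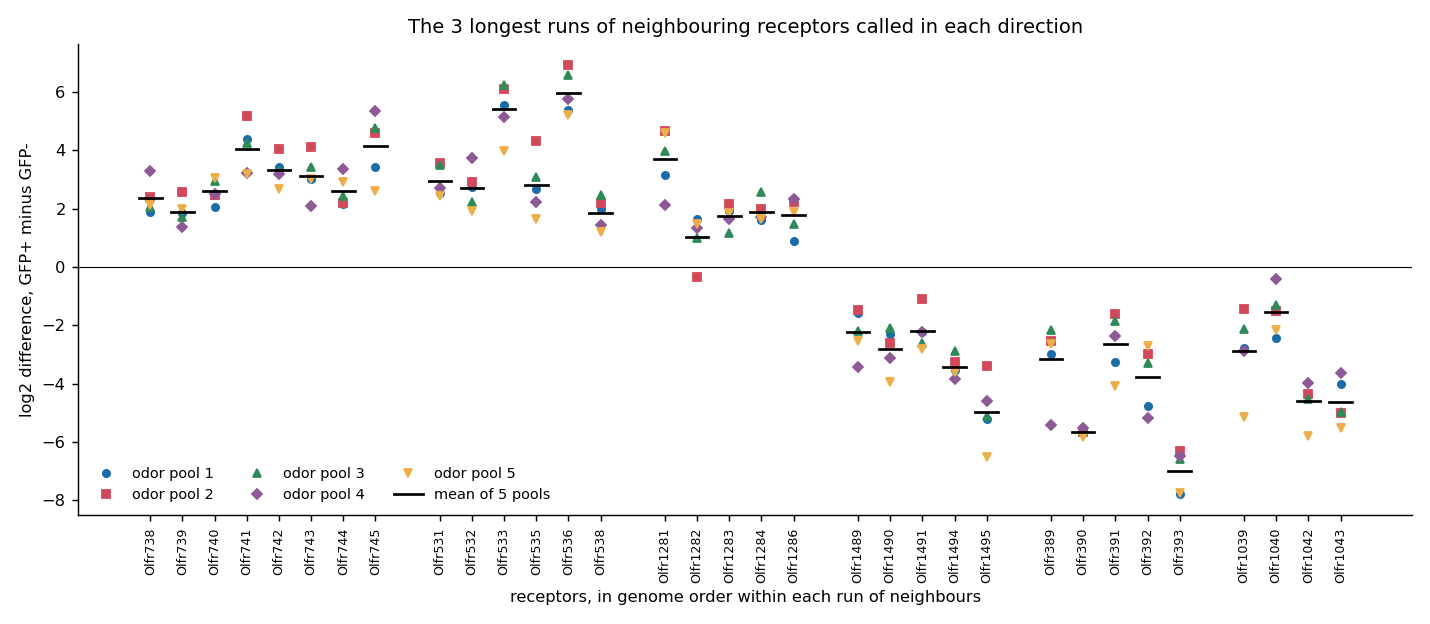
Differences GFP+ minus GFP- in log2 signal for each of the 5 odor pools (symbols) and their mean (bar), for the 3 longest runs of neighbouring receptors called higher and the 3 longest called lower. Members of a run lie on the same side of 0 in nearly every pool, and the exception is Olfr1282 in pool 2.

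The receptors for volatile amines, the Taar genes, lie in 1 gene cluster and also divided. Of 14 measured, 6 were higher in GFP+ cells (42.9%) and 1 was lower (7.14%), against 2 and 0 without the pool as a pair. Among all receptors 30.6% were higher and 17.0% lower, and among all probe sets 2.07% and 5.82%. Taar4, a receptor for phenylethylamine, was at 9.75, 9.67, 10.16, 9.89 and 11.53 in GFP+ cells and at 7.46, 6.66, 6.05, 5.33 and 7.99 in GFP- cells, a change of 3.50 (SE 0.36, adjusted p = 2.12e-05 by limma) with no overlap. Taar9 had a change of 3.04 (SE 0.44) and Taar7e of 1.30 (SE 0.25). Taar3 (2.49) and Taar7b (1.28) were called with all pools, and their calls ended without odor pool 2, 3 or 4, with changes of 2.18 to 2.45 and 1.01 to 1.25. Taar5, a receptor for trimethylamine, was called at 0.84, but its signals of 4.06 to 5.41 and 3.19 to 4.37 lay at or below background and the call ended without odor pool 1, 3, 4 or 5 or vehicle pool 4 or 5 (0.76 to 0.88). Taar2 was lower by a change of -2.56 (SE 0.69), a call that ended without odor pool 1, 2 or 5 or vehicle pool 3 or 4 (-2.76 to -1.79). The other 7 did not pass, with changes from -0.96 for Taar7d and -0.94 for Taar7a to 0.62 for Taar8c.

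Few genes outside the receptors were higher in the active fraction. Of the 125 such probe sets 111 have a gene symbol, and the one with the largest change, 5.80, has none. Fxyd2, a regulatory subunit of the sodium pump, was at 10.92, 10.49, 10.23, 8.96 and 11.97 in GFP+ cells and at 6.33, 6.73, 6.74, 6.71 and 7.75 in GFP- cells. The fractions did not overlap, with a change of 3.66 (SE 0.36, adjusted p = 1.5e-05 by limma), or 12.6-fold. Olfr911-ps1, a receptor pseudogene, followed with 2.75 (SE 0.33), and S100a5 came next. Lrrc3b (1.92, SE 0.42), Kcnmb3, a beta subunit of calcium-activated potassium channels (1.87, SE 0.39), and Caly, a vesicle trafficking protein (1.83, SE 0.34), were higher in 5 of 5 pools although the fractions overlapped, since their signals differed more between pools than within them. For Caly, 4 of 5 GFP- and 1 of 5 GFP+ signals lay at or below background. With its GFP- signals raised to background its change was 1.09. Pcp4l1, a small calmodulin-binding protein family member, was at 13.73 to 15.39 against 12.03 to 13.71, with all 5 pool differences positive (1.79, SE 0.32). Rfx4, a transcription factor, was at 9.13, 10.24, 10.27, 9.93 and 10.47 against 7.90, 7.89, 8.52, 8.27 and 8.88 (1.72, SE 0.30). Its change in vehicle pools was 0.88 and did not pass there, and the difference of 0.83 between the conditions did not pass either. Nell2, a secreted neuronal glycoprotein (1.7), and Cidea, a lipid droplet protein (1.64), completed the 10 largest positive changes among genes with a symbol outside the receptors. Probe sets without a symbol are not ranked here, and 7 of the 125 in all exceeded 4-fold. The calls of Lrrc3b, Kcnmb3, Caly and Cidea ended without the pool as a pair.

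Of 13 measured genes reported to follow activity in sensory neurons, 3 were higher (23.1%) and 1 lower (7.69%), beside 2.07% and 5.82% of all probe sets, with a median of 0.12 beside 0.08. With the 5 odor pools alone 5 were higher. The higher ones were S100a5, Lrrc3b and Pcp4l1. Cells were sorted by the S100a5 reporter, so its call follows from the sort and is no support for the list. Kirrel2, an adhesion molecule that sorts axons by activity, had 1.43 and Sema7a, a semaphorin, had 1.15, and neither passed the test. Kirrel3, whose level is reported to fall with activity, had -0.22. Calb2, the calcium-binding protein calretinin, went the other way, at 11.59, 11.69, 11.65, 12.57 and 12.43 in GFP+ cells and 16.12, 15.83, 16.33, 16.57 and 16.45 in GFP- cells. That change of -4.27 (SE 0.40, adjusted p = 9.98e-06 by limma), or 19.3-fold, is the largest among the listed neuronal calcium-binding proteins, and the GFP+ level stayed far above background.

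Of 18 measured genes of the odor transduction cascade none was higher, beside 2.07% of all probe sets, and 2 were lower (11.1%, beside 5.82%), with a median of 0.37. With the 5 odor pools alone 2 were higher, with weights per pool 3 and with quantile normalization 1. Gnal had 0.07, Adcy3 0.60, Cnga2 0.45, Cnga4 0.52, Ano2 0.62 and the phosphodiesterase Pde1c 0.95, and none of these passed. Rgs2, a regulator of G protein signalling that is reported to inhibit the cyclase, was lower, at 2.96 to 3.53 in GFP+ cells and 6.78 to 9.79 in GFP- cells. All its GFP+ signals were below background, so the change of -4.58 (SE 0.48) is at least 5.26-fold. Grk3, a kinase that desensitizes receptors, was called at -0.79, but 5 of 5 GFP+ and 4 of 5 GFP- signals lay at or below background, so its direction is not resolved. The call ended when any 1 odor pool, or vehicle pool 3 or 5, was left out (-0.90 to -0.63). Of 15 genes of receptor trafficking and neuronal maturity, which include Rtp1 (0.40) and Rtp2 (0.85), chaperones that bring receptors to the cell surface, only Kcnmb3 passed. None of 19 presynaptic genes passed, with Syn1 at 1.15, Syn2 at 1.06 and Rab3a at 1.05, and a median of 0.41 with 17 of 19 positive, where 2.07% of all probe sets were higher. With the 5 odor pools alone 4 of them were higher, and with weights per pool 3.

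Few genes of axon guidance, of the zones of the epithelium and of receptor choice passed. Of 28 axon guidance and adhesion genes, Alcam, a cell adhesion molecule, was the only one to pass (-1.37, SE 0.25), a share of 3.57% beside 5.82% of all probe sets. Its call ended without the pool as a pair, and 5 others of the list were higher with the 5 odor pools alone, 3 with weights per pool and 1 with centring. None of 21 ephrins and ephrin receptors passed, nor any of 20 clustered protocadherins (median 0.41) or 7 markers of dorsal and ventral zones, such as Nqo1 (0.38) and Ncam2 (0.25). Among 29 semaphorins, plexins and neuropilins Sema3e, a secreted guidance cue, was higher (1.18, SE 0.20), or 3.45% beside 2.07% of all probe sets. That call ended without the pool as a pair. With the 5 odor pools alone 5 of this list were higher, and with weights per pool also 5. Of 17 regulators of receptor choice, Lbr, the lamin B receptor that ties heterochromatin to the nuclear envelope and is lost as neurons mature, was lower at 9.64 to 10.76 against 11.57 to 12.71 (-1.94, SE 0.21). The part of white blood cells and other cells of the GFP- fraction in the change of Lbr was not tested. Smchd1, a chromatin protein, was called at -1.51, and that call ended without odor pool 3, 4 or 5 (-1.48 to -1.41).

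Of 90 potassium channel subunits 3 were higher (3.33%) and 2 lower (2.22%), near or below the 2.07% and 5.82% of all probe sets. The counts were 6 and 4 with the 5 odor pools alone and 1 and 0 without the pool as a pair. Kcnn2, a small-conductance calcium-activated potassium channel, was at 12.79 to 13.40 in GFP+ cells and 11.39 to 12.34 in GFP- cells, without overlap (1.28, SE 0.19, adjusted p = 0.000571 by limma). Kcnmb3 is described above. The other calls, Kcng1 (0.85), Kcnk1 (-0.99) and Kcnn4 (-1.08), each ended without odor pool 3, 4 or 5, those of Kcnk1 and Kcnn4 also without pool 1 and that of Kcnn4 without pool 2. Without these pools the changes were 0.68 to 0.86, -1.02 to -0.81 and -1.16 to -0.96. For Kcnn4, 5 of 5 GFP+ and 3 of 5 GFP- signals lay at or below background, so its direction is not resolved. None of 10 sodium channel, 25 calcium channel and 10 adenylyl cyclase genes passed, with Scn4b at 1.26 and Scn3b at 0.69. Of 23 phosphodiesterases Pde7b was higher (1.15, SE 0.28; without odor pool 2, 3 or 4 the call ended at 0.94 to 1.19). Another 4 were lower, among them Pde3b (-1.97) and Pde2a (-2.38), against 1 without the pool as a pair. Pde3b lay at or below background on 5 of 5 GFP+ arrays, so its change is at least 2.07-fold. Of 23 regulators of G protein signalling 7 were lower, or 4 without the pool as a pair, with Rgs2, Rgs5 (-3.60), Rgs13 (-3.39) and Rgs18 (-1.95), several of which are known from blood or vessel cells. Rgs7, a neuronal member, was higher at 10.81 to 11.22 against 9.07 to 10.37 (1.33, SE 0.27).

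Genes of white blood cells were lower in GFP+ cells. All 18 granule protein genes of neutrophils passed, against a background of 5.82%, with a median of -6.40. Ngp had 7.45, 8.50, 7.81, 8.26 and 6.92 in GFP+ cells and 18.49, 18.29, 18.67, 18.92 and 17.09 in GFP- cells (-10.50, SE 0.30). Retnlg (-9.71), S100a8 (-9.70), S100a9 (-9.42) and Chil3 (-9.14) followed. The mean signal over the granule list lay between 5.46 and 5.77 on the GFP+ arrays, within the background range, and between 11.60 and 12.67 on the GFP- arrays. Of 14 neutrophil surface and signalling genes 11 were lower, such as Itgam (-6.05) and Csf3r (-5.64). Of 18 monocyte and macrophage genes 12 were lower, with Ly6c2 at -8.40, the oxidase subunit Cybb at -6.66 and the chemokine receptor Ccr2 at -5.80. Itgam, Ly6c2 and Ccr2 lay at or below background on 5 of 5 GFP+ arrays. Their changes are therefore at least 35.2-fold, 136-fold and 14.5-fold. Of 17 lymphocyte and antigen presentation genes 11 were lower, with the B cell gene Cd79a at -5.02 and the common leukocyte antigen Ptprc at -4.47. Ly6c1 (-8.14), Ly6e (-8.08) and the myeloid transcription factor Spi1 (-7.78) were also among the 10 largest negative fitted changes of genes with a symbol outside the receptors. Ly6c1 too lay at or below background on 5 of 5 GFP+ arrays, so its change is at least 149.9-fold. Of 6 erythroid genes 3 were lower, with Car1 at -3.81. Car1 lay at or below background on 5 of 5 GFP+ arrays, so its change is at least 9.56-fold.

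Other lists were lower in GFP+ cells as well, and the part of white blood cells in their change was not tested. Of 22 immediate early genes, which are induced within minutes by many stimuli and are used as activity markers in brain neurons, none was higher and 13 were lower (59.1%, beside 5.82% of all probe sets), with a median of -1.76. Egr1 had 8.09, 6.92, 8.51, 8.12 and 8.34 in GFP+ cells and 14.95, 12.88, 14.85, 13.99 and 14.73 in GFP- cells (-6.28, SE 0.28, adjusted p = 8.31e-09 by limma), which do not overlap. Fos had 6.64, 5.57, 6.55, 7.09 and 9.46 against 13.08, 9.26, 12.60, 12.13 and 14.75 (-5.30, SE 0.60). Egr2 (-4.86), Zfp36 (-4.83), Fosb (-3.75) and Btg2 (-3.57) were lower too. Arc had -0.26, Npas4 0.56 and Egr4 0.13, and none of these passed. The fraction with the higher S100a5 signal therefore had the lower signal of Egr1 and Fos. The count of lower immediate early genes was 7 without the pool as a pair. Of 8 heat shock genes Hspa1a (-2.14) and Hspa1b (-2.09) were lower, and in pool 5 both were far dimmer than in the other pools, at 8.27 for Hspa1b in GFP- cells against 13.41 to 13.88. Both calls ended without the pool as a pair. Of 18 genes of the stress and unfolded protein response, Gadd45b (-1.95), Gadd45g (-1.42) and Gadd45a (-0.83) were lower. For Gadd45g, 5 of 5 GFP+ and 1 of 5 GFP- signals lay at or below background. With its GFP+ signals raised to background its change was -0.61. The calls of Gadd45g and Gadd45a ended without the pool as a pair. The call of Gadd45a ended without odor pool 4 or 5 (-0.80 to -0.77), and that of Dnajb9, a chaperone called higher (0.70), ended when any 1 odor pool, or vehicle pool 4 or 5, was left out (0.60 to 0.81). Among 14 genes of cell survival Casp8 (-3.64) and Mcl1 (-1.61) were lower, and the call of Mcl1 ended without the pool as a pair.

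Genes of earlier stages of the neuronal lineage were lower in part. Of 16 immature neuron genes 7 were lower (43.8%, beside 5.82% of all probe sets) and none higher, with a median of -0.43. Gng8, a G protein subunit of immature neurons, was at 5.12 to 5.84 in GFP+ cells and 8.36 to 10.93 in GFP- cells (-3.87, SE 0.48), without overlap. Gap43, a growth cone protein, was at 8.07 to 9.49 against 10.16 to 12.02 (-2.59), and Dpysl3 (-3.78), Sox11 (-2.87), Stmn1 (-2.37), Ablim1 (-2.47) and Cxcr4 (-5.17) were lower as well. Ablim1 lay at or below background on 5 of 5 GFP+ arrays, so its change is at least 3.18-fold. Cxcr4 is also abundant in white blood cells. Dcx had -0.02, Tubb3 0.43 and Stmn2 -0.22, and none of these passed. Of 12 genes that mark globose basal cells or dividing progenitors, 6 were lower (4 with quantile normalization, 4 with centring and 3 without the pool as a pair), with the proliferation marker Mki67 at 5.01 to 5.30 against 9.31 to 11.72 (-5.14, SE 0.47) and Kit at -4.27. Kit lay at or below background on 5 of 5 GFP+ arrays, so its change is at least 14.5-fold. Insm1 (-1.31), Ezh2 (-1.11) and Mcm2 (-1.08) lost their calls without 1 of several odor pools. Those were pools 1, 3, 4 or 5 for Insm1 (-1.40 to -1.09), pools 1, 3 or 4 for Ezh2 (-1.13 to -0.96) and pools 1, 4 or 5 for Mcm2 (-1.02 to -0.94). None of 8 horizontal basal cell genes passed.

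Genes of microvillar cells were lower in GFP+ cells more often than those of other non-neuronal cells of the epithelium, a difference that was not tested. Of 14 genes of Trpm5 microvillar or tuft-like cells 10 were lower (71.4%, beside 5.82% of all probe sets) and all 14 had a negative change, with a median of -1.37. Trpm5, a cation channel, was at 5.16, 4.72, 5.28, 5.48 and 6.10 in GFP+ cells and at 9.81, 9.0, 9.63, 10.16 and 10.32 in GFP- cells (-4.44, SE 0.18, adjusted p = 4.94e-09 by limma). The GFP+ values were at the level of the background controls. Hepacam2 (-4.96), Alox5, which makes leukotrienes and is also known from white blood cells (-4.42), Sh2d7 (-3.07) and Pou2f3, the master regulator of these cells (-2.03), were lower too. Alox5 and Sh2d7 lay at or below background on 5 of 5 GFP+ arrays, so their changes are at least 8.11-fold and 3.04-fold. Of 8 genes of ionocyte-like microvillar cells 5 were lower, or 3 without the pool as a pair, with Foxi1, their transcription factor, at -2.73, the chloride channel Cftr at -2.68 and Coch at -2.56. The call of Atp6v0d2 (-1.82) ended when any 1 odor pool, or vehicle pool 3 or 4, was left out (-2.08 to -1.29). Genes of supporting and gland cells gave fewer calls. Of 13 sustentacular genes Notch2 (-1.68) passed, with a median of -0.78 and 11 of 13 negative. For Notch2, 4 of 5 GFP+ signals lay at or below background, and with these raised to background its change was -0.85. Of 12 Bowman gland genes Sox9 was lower at 5.64 to 7.13 against 9.79 to 11.79 (-4.50, SE 0.31). Bpifa1 (-1.02) was called too, and without odor pool 1, 3, 4 or 5 or vehicle pool 5 it was not (-1.14 to -0.84). Without odor pool 2 the sustentacular list had 4 lower members and the Bowman gland list 4.

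Vessel, glia and ciliated cells gave few calls, from short lists. The endothelial and stromal list had 16.7% lower and the ensheathing glia list 12.5%, beside 5.82% of all probe sets. Of 12 endothelial and stromal genes Rgs5, a pericyte gene, was lower (-3.60, SE 0.44), and Pecam1 (-1.02) lay at the threshold with an adjusted p of 0.0497 by limma. For Pecam1, 5 of 5 GFP+ and 3 of 5 GFP- signals lay at or below background. With its GFP+ signals raised to background its change was -0.06, so its direction is not resolved. The call ended without odor pool 2, 3, 4 or 5 or vehicle pool 3, 4 or 5 (-1.09 to -0.75). The median of this list, -0.16, turned positive with each array centred on its median. Of 8 ensheathing glia genes Apoe was lower (-2.02), a call that ended without odor pool 3, 4 or 5 (-1.77 to -1.70). None of 7 ciliated cell genes passed, against 1 higher with quantile normalization and with centring. The guanylyl cyclase D neuron list had Pde2a lower at 5.87 to 7.42 against 6.89 to 11.40 (-2.38) among 6 genes (16.7%). None of 13 genes of the xenobiotic and oxidant response passed, a list that includes targets induced by compounds of smoke, with Gstm1 at -1.39 and Srxn1 at 0.98. This comparison is within odor-exposed animals and does not measure an effect of the odor on those genes.

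**Figure D5:**
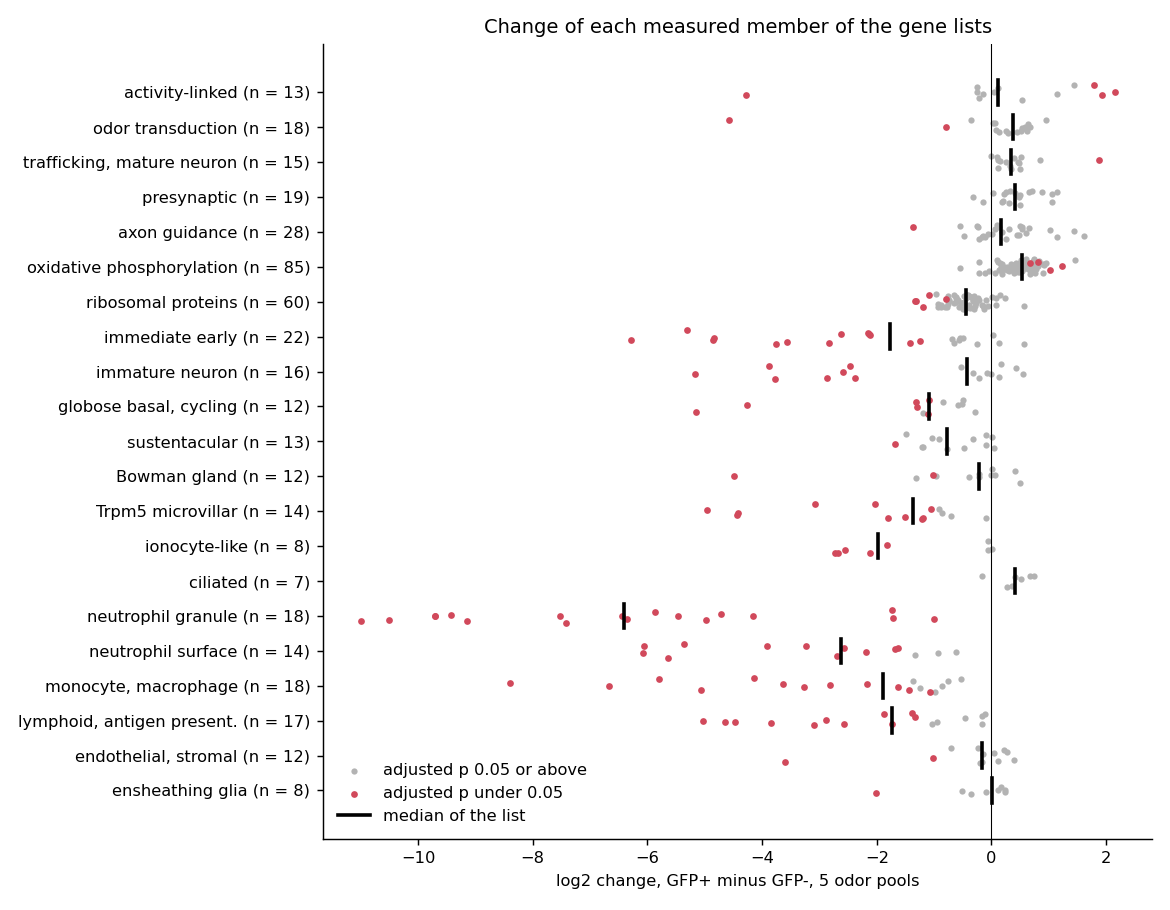
Log2 change between GFP+ and GFP- cells over 5 odor pools (horizontal axis) of each measured member of 21 gene lists, with the list median as a black bar. Red points passed an adjusted p under 0.05 by limma: most members of the neuronal lists did not pass, and the lists of white blood cells, microvillar cells and immediate early genes lie to the left.

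Broad metabolic families shifted by small amounts. Of 85 oxidative phosphorylation subunits, which make up the respiratory chain of mitochondria, 80 had a positive change and the median was 0.54, beside 0.08 over all probe sets. Only 4 passed, Ndufb4b (1.23), Ndufv3 (1.03), Ndufb2 (0.82) and Ndufa13 (0.68), against 1 with quantile normalization, 13 with centring, 14 with the 5 odor pools alone, 29 with weights per pool, 0 without the pool as a pair and 1 without odor pool 2. The share of 4.71% higher stands beside 2.07% of all probe sets. Each of these 4 lost its call without odor pool 1, 3 or 4, and some also without others, with changes of 0.996 to 1.25, 0.87 to 1.07, 0.72 to 0.93 and 0.60 to 0.78. Of 60 cytosolic ribosomal proteins 54 had a negative change, with a median of -0.45, and 5 passed (8.33%, beside 5.82% of all probe sets). The count was 0 without the pool as a pair, 2 with centring, 1 without both pools numbered 5, 12 with the 5 odor pools alone and 17 with weights per pool. Rps20 (-1.20, SE 0.21) kept its call with any 1 pool left out. The others, Rplp0 (-1.33), Rps28 (-1.31), Rps16 (-1.08) and Rps7 (-0.80), lost theirs without odor pool 4 or 5, and all but Rps28 also without others. Their changes without the pools that ended the call were -1.35 to -1.10, -1.25 to -1.21, -1.14 to -0.91 and -0.90 to -0.66. Among 90 cytochrome P450 enzymes Cyp26b1, which degrades retinoic acid, was higher (0.91, SE 0.19), a call that ended without the pool as a pair. Cyp4f18 (-0.89) and Cyp27a1 (-0.88) were called lower, and both calls ended with centring, with quantile normalization, without the pool as a pair and without odor pool 1, 3, 4 or 5. All 10 signals of Cyp27a1 lay at or below background. The shares of 1.11% higher and 2.22% lower lay below those of all probe sets. Of 319 vomeronasal receptors, which belong to another organ, 1 was called higher, Vmn1r43 (0.83), whose signals of 3.87 to 4.36 lay below background, and 306 of the 319 had both means within or below the background range.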

How the data were processed

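The members and gene lists were chosen with earlier results of these data known, and the grouping of receptors by family and neighbourhood was added after seeing the data. Biotinylated cRNA from 50 to 100 ng of RNA was hybridised to Affymetrix Clariom S arrays per the labels' protocols, and Affymetrix Expression Console is the tool named in the submitters' processing notes. How it corrected background, normalized and summarized probes, and in which version, is not given in the sources used here. Signals were used on the log2 scale of the deposited table, so an unknown scaling can shift all changes of an array. The table has 28846 rows. Of these, 6640 control rows were left out, and 22206 gene probe sets were kept with no filter. A symbol was available for 19572, and each had its Entrez ID in the RefSeq gene table (GRCm38.p6), which also gave older receptor family names and neighbours. Lists used 1 probe set per gene, that with the highest mean. No detection calls exist. Background is the median of 23 background control rows per array. A value called at least N-fold used, for the dimmer fraction, the higher of its signal and that median on each array.

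Fractions with the same condition and number were taken as 1 pool of 3 mice, because the labels give 30 mice in 10 pools of 3. Their differences in the 10 pools entered limma 3.58.1 in R 4.3.3 (lmFit, eBayes) with 1 mean per condition, and the odor mean was tested against 0, two-sided, with Benjamini-Hochberg adjustment over all 22206 probe sets at 0.05. At most 0.00901% of values were identical between any pair of arrays. The pools are samples of separate animals. Lists were described by counts and medians only. The code was tested on simulated data. Named genes are S100a5, Omp and Lcn2; the 10 receptors and 10 other genes with the largest changes in each direction among those called with 1 sign in 5 of 5 pools; all Taar genes; up to 6 called members of each list, or up to 3 where none was called; the genes with the smallest p for the difference from vehicle pools; and the longest runs of neighbouring receptors. A few list members that did not pass, such as Kirrel2, Sema7a, Gnal, Cnga2, Arc and Dcx, were named after their values were seen. Alternatives were the odor pools alone, no pairing, quantile normalization, centring, a filter on dim probe sets, an intensity trend, weights per pool, a batch term for or no pools numbered 5, and each pool left out.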

Additional observations from a re-analysis of the deposited data

Results flagged for a closer look

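In 9 of 189 sets of 5 pool differences GFP+ minus GFP- (4.76%), 1 pool lay far from the other 4, by a gap of more than 0.71 of the whole range. Chance alone flags about 1 in 20. Pool 5, whose arrays had other medians and maxima than the rest, held 4 of them: Ablim1 at -4.51 (others -2.27 to -1.66), Plcb2 at -2.80 (others -1.69 to -1.35), Hspa1b at -0.57 (others -2.71 to -2.28) and Pde3b at -2.62 (others -1.94 to -1.72). Pool 2, whose GFP- array correlated least with its group among the arrays of pools 1 to 4, held Egr2 at -1.09 (others -6.43 to -5.30) and Ms4a1 at -0.0076 (others -2.50 to -1.85). Pool 3 held Chil3 at -8.17 (others -9.50 to -9.34) and Bcl2a1b at -1.58 (others -1.02 to -0.83), and pool 4 held the receptor Olfr389 at -5.43 (others -2.97 to -2.15). Whether the arrays of pools 2 and 5 caused these gaps was not tested.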

How the results depend on the processing

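Of the results on all probe sets, on receptors and on S100a5, Omp and Lcn2, none changed direction under an alternative. The 460 higher probe sets became 1047 with the 5 odor pools alone, 206 with no replicate block, 807 with arrays centred on their median and 1392 with pool weights, and 327 to 628 with 1 pool left out. The 1292 lower became 844 with no replicate block and 1974 with pool weights, and 940 to 1499 with 1 pool left out. The 335 higher receptors became 182 with no replicate block, and 276 to 371 with 1 pool left out, and the 186 lower ones 153 to 205. With 1 pool left out S100a5 ranged from 1.87 to 2.37, Omp from 0.08 to 0.14 and Lcn2 from -11.25 to -10.67. The difference from vehicle pools gave 0 calls under every alternative, including the replicate block that pairs odor with vehicle pools of 1 number. The cause of these changes was not tested.

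Of 226 other named genes 186 were called, and 0 of these reversed. Ncam2, which was not called, ranged from -0.0775 without odor replicate 2 to 0.386 without odor replicate 4. With no replicate block 59 lost their call, with centring 16, with quantile normalization 16 and without both pools numbered 5, 33. Of 1800 counts of list members under alternatives 1584 were within 1.5 times the reported one, and taking the mean over a gene's probe sets moved 0 of 90. The medians of the endothelial, phosphodiesterase, G protein regulator, ephrin and guanylyl cyclase D neuron lists turned positive with centring. Without odor pool 2 those of the zone marker and stress response lists turned negative, at -0.08 and -0.05. Some other medians near 0, such as that of receptor choice with quantile normalization (-0.08), also changed sign. The pool weights of odor pools were 0.821 to 2.22, and vehicle pool 1 had 0.222. The files give no detection calls, so changes of genes near background are not resolved.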

Other observations

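Ccl27a, an epithelial chemokine named for its small p in the comparison with vehicle pools, was at 10.48, 10.73, 11.05, 11.29 and 13.20 in GFP+ cells and at 9.53, 8.92, 10.09, 10.14 and 12.68 in GFP- cells of odor pools, a change of 1.08 (SE 0.22, adjusted p = 0.00568 by limma). In vehicle pools its change was 0.01, and the difference of 1.07 had an adjusted p of 0.9999 by limma. Olfr1202 likewise had a change of 2.67 in odor pools and of -0.05 in vehicle pools, with an adjusted p of 0.9999 for the difference of 2.72. Its call in odor pools ended without odor pool 2 or 4, at 2.32 to 2.50.

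Ms4a genes, known from white blood cells and from a chemosensory neuron type of the olfactory epithelium, were lower in GFP+ cells in 5 of 18 cases (27.8%, beside 5.82% of all probe sets) and higher in none, with a median of -0.64. Ms4a4c had a change of -3.90, Ms4a6c of -2.66, Ms4a6b of -2.44, Ms4a1 of -1.74 and Ms4a3 of -1.22, and the call of Ms4a1 ended without odor pool 5 (-1.55). All GFP+ and 2 of 5 GFP- signals of Ms4a3 lay at or below background, and with signals raised to background its change was -0.04. White blood cell genes were lower in the same comparison, and their part in this was not tested. Of 11 interferon response genes Ifitm3 was lower (-5.03, SE 0.36).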
